A study of Homo sapiens with 2 samples.

Results

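The 39 genes described here encode the enzymes that load amino acids onto transfer RNAs, with 3 proteins that work beside them. They were chosen by gene symbol: 20 genes of cytosolic aminoacyl-tRNA synthetases, the scaffold genes AIMP1 and AIMP2, the tRNA exporter gene XPOT and 16 genes of mitochondrial synthetases, whose symbols end in 2. All 39 were among the 25343 gene entries, and all had a mean of at least 1 TPM over both libraries, as did 13745 entries in total. TPM is a transcript abundance corrected for length that sums to 1000000 in each library, so levels can be set side by side between genes. The RNA came from Huh7, an established human hepatocellular carcinoma line, kept for 6 days in medium with 0.45 g/L glucose (low glucose) or 4.5 g/L glucose (high glucose). Both cultures grew in DMEM with fetal bovine serum from 500000 seeded cells per well. At each passage only living cells were put back, so cells lost in either medium are not represented. Each medium has 1 library. No spread between cultures can be measured, no test between the media is possible, and every difference below describes that pair of libraries.

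Each synthetase joins 1 kind of amino acid to its tRNAs, which carry it to the ribosome. Cytosol and mitochondria translate separately, and for most amino acids each compartment has an enzyme of its own encoded by a separate nuclear gene. When a tRNA lacks its amino acid, the kinase GCN2 marks initiation factor eIF2, bulk translation falls and the transcription factor ATF4 is made. A number of cytosolic synthetase genes are known targets of ATF4 in mammalian cells, together with genes for amino acid import and synthesis.

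The libraries carried the hepatocyte and hepatoma markers. All 11 listed genes of this kind (ALB, AFP and APOA1 among them) stood between 154 and 16441 TPM in low glucose and between 211 and 20859 TPM in high glucose. Of 5 leukocyte genes, PTPRC and CD3E stayed below 1 TPM in both libraries, while CD68 stood at 39.3 against 20.4 TPM and LYZ at 198 against 550 TPM. The 3 endothelial genes summed to 2.19 against 2.14 TPM. The 5 fibroblast genes summed to 40.4 against 30.05 TPM, most of it COL1A2, with DCN at 0.07 TPM in both. Since RNA was taken from whole cultures, fewer cells of a kind and less RNA per cell cannot be told apart.

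The cytosolic genes split, and the mitochondrial genes stayed close together. Of 23 cytosolic members, 14 had higher TPM in low than in high glucose and 9 lower. Of 16 mitochondrial members, 5 were higher and 11 lower, though 4 of those 5 turned slightly negative under other scalings and YARS2 alone stayed above 0. Of all genes compared, 54.6% were higher. Differences are given as log2(TPM + 1) in low glucose minus the same in high glucose, a scale that understates differences of genes of low level. The median difference was 0.31 for the cytosolic members and -0.11 for the mitochondrial members, beside 0.05 for all genes compared, whose 25th and 75th percentiles were -0.23 and 0.35. Among members whose interval no other entry overlaps, the medians were 0.38 for the cytosolic and 0.0036 for the mitochondrial genes, so the negative sign of the mitochondrial median did not hold there. The cytosolic differences ran from -0.27 to 1.24 and the mitochondrial ones from -0.37 to 0.14. Each of the 14 cytosolic members above 0 exceeded the highest mitochondrial member. The other 9 lay within the mitochondrial range.

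**Figure D1:**
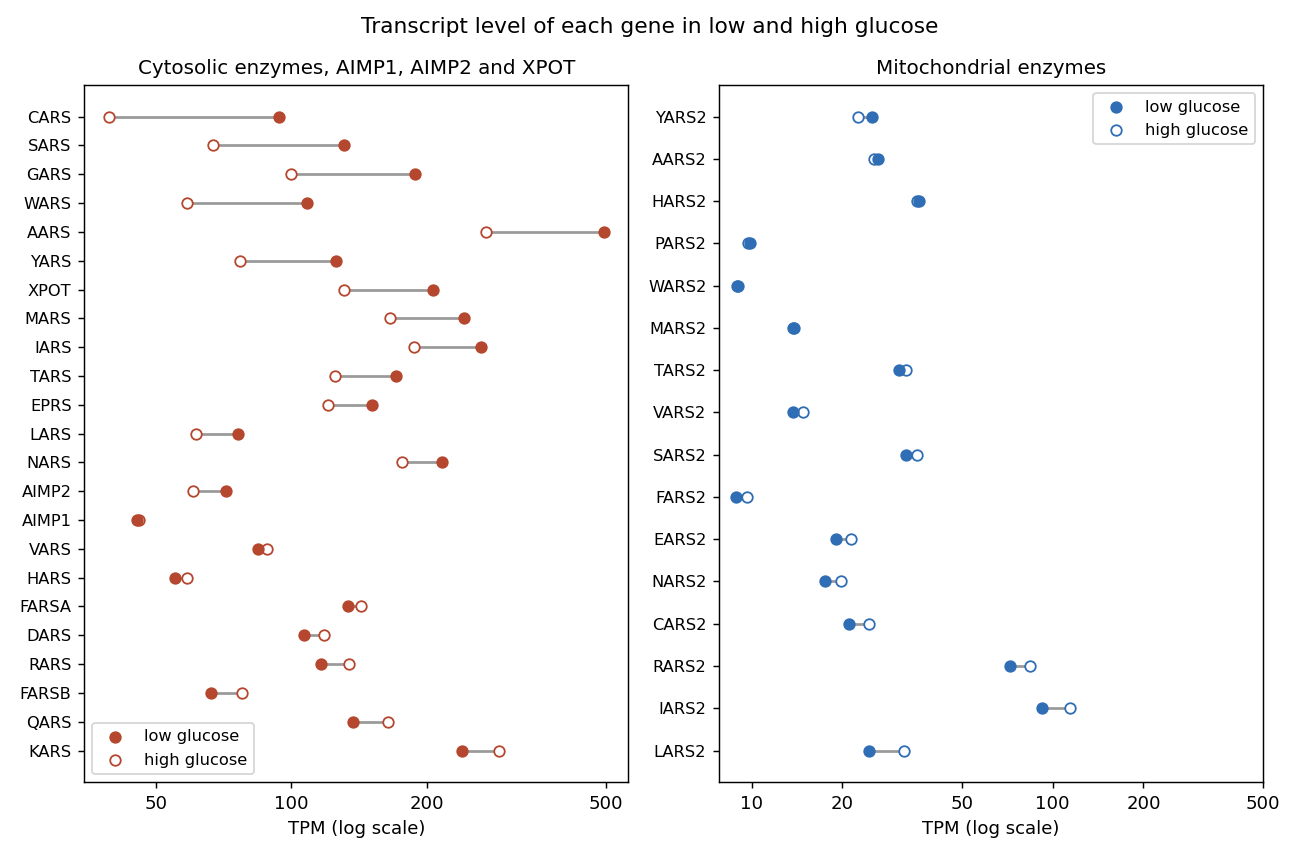
TPM of every member in low glucose (filled points) and high glucose (open points) on log axes, cytosolic genes on the left and mitochondrial genes on the right, ordered from the largest to the smallest difference; each point is 1 library. The lines are long and point to low glucose for the upper cytosolic genes, from CARS at 94.2 against 39.4 TPM, and short for the mitochondrial genes.

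A gene was called 2-fold higher from a difference of 1 upward and 2-fold lower from -1 downward. By that rule 1 member, CARS, was higher in low glucose and none was lower, where 3.65% of all genes compared were at least 2-fold higher and 1.10% at least 2-fold lower. At a difference equal to 1.5-fold, 7 members were higher, all of them cytosolic, and none was lower. The background at 1.5-fold was 13.0% higher and 6.07% lower. Abundant genes tended toward lower values in low glucose. Among the 3584 genes in the range of mean TPM of the cytosolic members, 45.7 to 383, the median difference was -0.11, 39.8% were above 0, and 3.10% and 9.93% were at least 2-fold and 1.5-fold higher. In that range 1.40% were at least 2-fold lower and 8.18% at least 1.5-fold lower. Among the 8103 genes in the range of the mitochondrial members, 8.96 to 103, the median was 0.02 and 52.0% were above 0. Of these, 2.92% were at least 2-fold and 11.2% at least 1.5-fold higher, and 0.963% and 5.75% lower by the same rules. With the median of genes of like level subtracted, a setting added after the data were seen, 4 members passed 2-fold: CARS at 1.34, SARS at 1.08, GARS at 1.07 and AARS at 1.01. Under that setting 442 of the 13745 genes compared were at least 2-fold higher and 175 at least 2-fold lower.

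CARS, the cytosolic cysteinyl-tRNA synthetase (chromosome 11, 3022152 to 3078681, hg19), stood at 94.2 TPM in low glucose against 39.4 TPM in high glucose. Its difference of 1.24 lay above those of 98.1% of all genes compared. It had the lowest level of the 23 cytosolic members in high glucose and was 17th in low glucose. SARS, the seryl-tRNA synthetase (chromosome 1, 109756515 to 109780804), stood at 131 against 67.2 TPM, a difference of 0.96. GARS, the glycyl-tRNA synthetase (chromosome 7, 30634181 to 30673648), stood at 189 against 100.1 TPM, a difference of 0.91. SARS and GARS thus came short of 2-fold by a small margin.

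WARS, the tryptophanyl-tRNA synthetase (chromosome 14, 100800125 to 100842680), stood at 108 against 58.7 TPM, a difference of 0.87. AARS, the alanyl-tRNA synthetase (chromosome 16, 70286297 to 70323412), stood at 495 against 271 TPM, also a difference of 0.87. AARS was the most abundant member in low glucose and the second most abundant after KARS in high glucose. YARS, the tyrosyl-tRNA synthetase (chromosome 1, 33240840 to 33283633), stood at 126 against 77.2 TPM, a difference of 0.70. XPOT is not an enzyme but the export receptor that carries tRNAs out of the nucleus (chromosome 12, 64798153 to 64842463). It stood at 207 against 131 TPM, a difference of 0.66, and was the last member past 1.5-fold. Median-of-ratios and trimmed-mean scaling placed it just short of that line, at 0.57 and 0.56.

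A further 7 cytosolic members were higher by smaller amounts. MARS, the methionyl-tRNA synthetase that also charges the initiator tRNA, stood at 242 against 166 TPM (0.54). Its interval shares 68 bases at its far end with that of DDIT3, a stress-induced gene at 208 against 34.1 TPM, and no source used here says whether the libraries keep strand. The part of those shared bases in the MARS value was not tested. IARS, the isoleucyl-tRNA synthetase, stood at 264 against 187 TPM (0.49). TARS, the threonyl-tRNA synthetase, stood at 171 against 125 TPM (0.45). EPRS encodes a bifunctional protein that charges glutamate and proline tRNAs. It stood at 151 against 121 TPM (0.32). The leucyl enzyme gene LARS stood at 76.4 against 61.4 TPM (0.31), and its product also senses leucine for mTORC1. The asparaginyl enzyme gene NARS stood at 216 against 177 TPM (0.29). AIMP2, a scaffold of the multi-synthetase complex, stood at 71.8 against 60.6 TPM (0.24), within the central range of all genes, as were EPRS, LARS and NARS.

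The other 9 cytosolic members were level or lower. KARS, the lysyl-tRNA synthetase, stood at 239.6 TPM in low glucose against 289.6 TPM in high glucose, a difference of -0.27 and the lowest of the cytosolic set. It was the most abundant of the 23 in high glucose and the fourth in low glucose. QARS, the glutaminyl enzyme gene, stood at 137 against 164 TPM (-0.26). FARSB and FARSA encode the subunits of the phenylalanyl enzyme. FARSB stood at 66.3 against 77.7 TPM (-0.23) and FARSA at 134 against 143 TPM (-0.09). RARS, for arginine, stood at 117 against 134 TPM (-0.20). DARS, for aspartate, stood at 107 against 119 TPM (-0.15). HARS, for histidine, stood at 55.1 against 58.8 TPM (-0.09). VARS, for valine, stood at 84.3 against 88.4 TPM (-0.07). AIMP1, the second scaffold gene, was nearly level at 45.5 against 45.9 TPM (-0.01). AIMP1, VARS and FARSA changed sign under at least 1 other setting, so their direction is not settled.

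**Figure D2:**
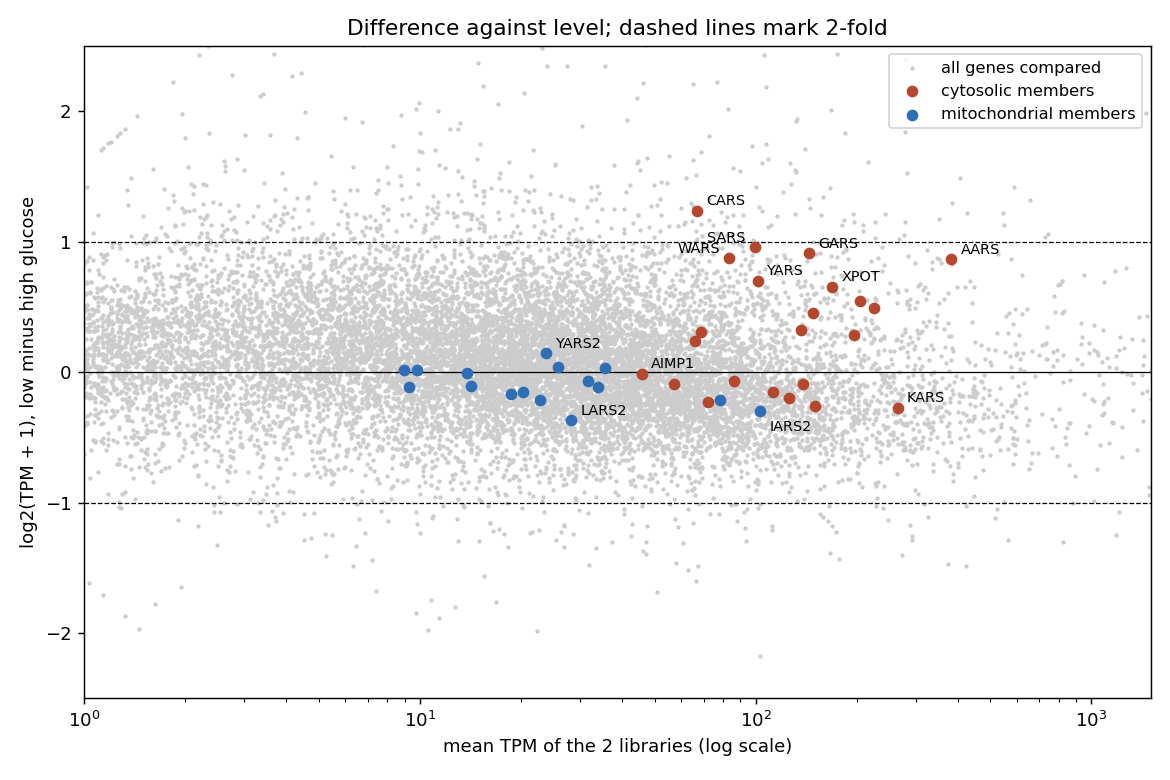
Change in log2(TPM + 1) (low glucose value less the high glucose value) against the mean TPM of both libraries on a log axis, for all genes compared (grey), cytosolic members (red) and mitochondrial members (blue); dashed lines mark 2-fold, and genes beyond the axes are not drawn. CARS at 1.24 lies above the upper line, and a group of abundant cytosolic genes lies below it but above the bulk of genes of like level.

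Promoter sequences were read for a composite element bound by ATF4 with C/EBP proteins. Its core was searched as TGATGCAA, and more loosely as TGATGNAA, on both strands. The windows were those of RefSeq on GRCh38.p14, 250 bases before to 50 bases after each gene start. They were matched to 33 members by symbol or RefSeq synonym, and the starts used in Huh7 were not determined. TGATGCAA was in a window of 6 of the 19 cytosolic members with one and of 0 of the 14 mitochondrial members with one, against 1.08% of 27305 genes. All 6 were among the 12 such members above the mitochondrial range (CARS, AARS, MARS, IARS, TARS and NARS). None of the 7 other cytosolic members with a window held it. The looser TGATGNAA, which includes it, added GARS and the mitochondrial YARS2 (4.46% of genes). With these, 7 of the 19 cytosolic members (36.8%) and 1 of the 14 mitochondrial members (7.14%) held the looser form. The YARS2 match, TGATGGAA, begins 197 bases before the start, and its difference of 0.14 lay within the central range of all genes. SARS, WARS, XPOT, EPRS and AIMP2 had windows without a match. For comparison, the list of the GCN2 pathway and amino acid response held TGATGCAA in 2 of 19 genes and TGATGNAA in 6. These matches are letters in a window, not measured binding.

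The stretches below show the match in capitals for the 7 cytosolic genes, 5′ to 3′ on the gene's strand, so that TTGCATCA is TGATGCAA read from the other strand. They are shown because the match sits close to a listed gene start in most of them. CARS, TARS and GARS each have 2 listed starts, and the window of the other start holds no match. In NARS the match reads in the opposite direction to the rest. It begins 2 bases before the start in CARS (chr11:3057394-3057453), 4 before in MARS (chr12:57488038-57488097) and 13 before in IARS (chr9:92293677-92293736). It begins 33 bases before the second listed start in GARS (chr7:30594819-30594878) and 187 before in AARS (chr16:70289660-70289719). It begins 2 bases after the start in TARS (chr5:33440935-33440994) and 14 after in NARS (chr18:57621807-57621866). CARS, IARS, AARS and NARS lie on the minus strand and the others on the plus strand.
CARS: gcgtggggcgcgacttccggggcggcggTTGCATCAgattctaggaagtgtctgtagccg
GARS: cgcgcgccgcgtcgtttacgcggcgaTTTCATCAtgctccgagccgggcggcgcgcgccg
AARS: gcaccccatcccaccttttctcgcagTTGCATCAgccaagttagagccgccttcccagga
MARS: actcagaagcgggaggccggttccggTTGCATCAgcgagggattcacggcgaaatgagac
IARS: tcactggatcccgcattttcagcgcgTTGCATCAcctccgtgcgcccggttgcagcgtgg
TARS: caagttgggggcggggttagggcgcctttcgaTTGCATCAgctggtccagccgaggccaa
NARS: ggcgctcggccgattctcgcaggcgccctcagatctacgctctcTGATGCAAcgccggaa

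For contrast, the same length around the start is shown for KARS (chr16:75647636-75647695) and QARS (chr3:49104728-49104787), the cytosolic genes with the lowest differences, and around the second listed start of CARS2 (chr13:110706087-110706146), the mitochondrial partner of CARS. All 3 lie on the minus strand and their windows hold neither form of the core.
KARS: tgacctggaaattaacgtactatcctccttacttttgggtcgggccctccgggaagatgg
QARS: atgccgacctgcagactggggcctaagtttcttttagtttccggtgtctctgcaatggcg
CARS2: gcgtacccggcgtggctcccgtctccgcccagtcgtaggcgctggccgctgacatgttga

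A pair of other motifs was also searched. The endoplasmic reticulum stress element (CCAAT and CCACG 9 bases apart, either strand) was in no member's window and in 0.0916% of genes. The E-box CACGTG, read by factors such as MYC, was in 2 of the 12 cytosolic members above the mitochondrial range (IARS and AIMP2), in 0 of the 7 other cytosolic members and in 3 of the 14 mitochondrial members (MARS2, EARS2 and CARS2), against 8.77% of genes.

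The mitochondrial synthetases had lower levels than the cytosolic ones in both media, with medians of 22.8 TPM in low and 23.5 TPM in high glucose, beside 131 and 119 TPM for the cytosolic members. IARS2, the isoleucyl enzyme gene, was the most abundant in both media, at 92.4 TPM in low against 114 TPM in high glucose (-0.30). RARS2, for arginine, came next at 72.3 against 84.0 TPM (-0.21). The lowest difference was that of LARS2, for leucine, at 24.5 against 32.0 TPM (-0.37). At the other end YARS2, for tyrosine, stood at 25.1 against 22.6 TPM (0.14). Of the 16, 14 lay between the 25th and 75th percentiles of all genes, and IARS2 and LARS2 lay below.

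Among the remaining 12 mitochondrial members, 8 had values below 0. CARS2 (cysteine) stood at 21.01 against 24.49 TPM and NARS2 (asparagine) at 17.5 against 19.85 TPM. EARS2, which charges glutamate and also supplies the precursor of mitochondrial glutaminyl-tRNA, stood at 19.1 against 21.35 TPM. FARS2 (phenylalanine) stood at 8.85 against 9.68 TPM and SARS2 (serine) at 32.5 against 35.3 TPM. VARS2 (valine), TARS2 (threonine) and MARS2 (methionine) completed those below 0, at 13.7 against 14.8 TPM, 30.9 against 32.5 TPM and 13.75 against 13.84 TPM. The 8 differences ran from -0.21 to -0.01. The other 4 were nearly level. AARS2 (alanine) stood at 26.2 against 25.4 TPM, HARS2 (histidine) at 36.02 against 35.31 TPM, PARS2 (proline) at 9.89 against 9.76 TPM and WARS2 (tryptophan) at 9.02 against 8.91 TPM.

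Pairing the enzymes by amino acid gave 17 pairs, because EPRS was set against both EARS2 and PARS2 and each phenylalanyl subunit against FARS2. The cytosolic gene had the higher difference in 15 pairs and the mitochondrial gene in 2. It exceeded its partner by at least 0.5 in 9 pairs, while no mitochondrial gene exceeded its partner by more than 0.12, and the median gap was 0.52. Cysteine had the widest gap, 1.45, with CARS at 1.24 and CARS2 at -0.21. Serine followed at 1.07, tryptophan at 0.86 and alanine at 0.83. Isoleucine (0.79) and leucine (0.68) came next, with the cytosolic gene above 0 and the mitochondrial gene among the lowest. For valine, arginine and the FARSA subunit the partners differed by less than 0.05. Histidine (-0.12) and the FARSB subunit (-0.11) were the pairs with the cytosolic gene lower. Pairs that share a member are not independent.

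**Figure D3:**
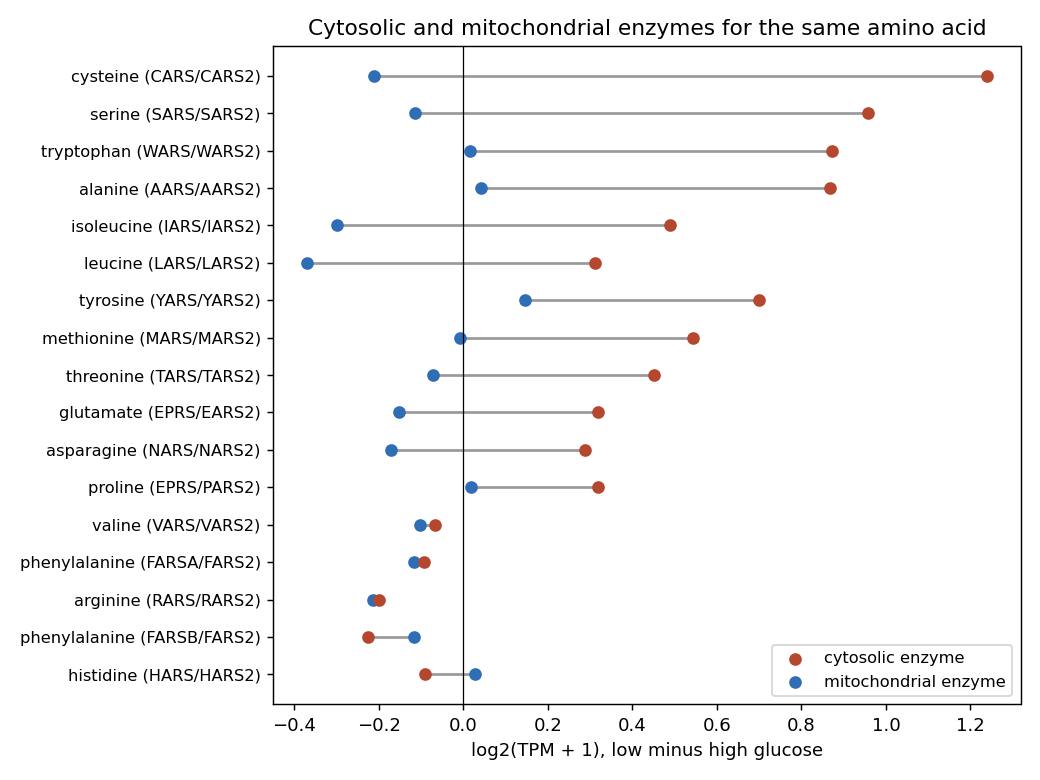
Change in log2(TPM + 1), low glucose value less high glucose value, of the cytosolic (red) and the mitochondrial (blue) enzyme for each amino acid, ordered by the gap between them. The gap is 1.45 for cysteine at the top, and the red points of valine, phenylalanine, arginine and histidine lie beside the blue ones.

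HARS and HARS2 are neighbours. Their hg19 intervals share 302 bases, and their RefSeq promoter windows on opposite strands share 184 bases (chr5:140691321-140691504, GRCh38.p14). Both were close to level (-0.09 and 0.03). They encode closely related proteins, so reads shared between them may have been divided, and their separate values are uncertain to that extent. GARS and KARS each serve both compartments from 1 gene. They went opposite ways, GARS at 0.91 and KARS at -0.27.

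In summed TPM, the 23 cytosolic members held 3528 TPM in low glucose against 2763 TPM in high glucose, a ratio of 1.28. The 16 mitochondrial members held 453 against 504 TPM, a ratio of 0.899. The 14 cytosolic members above the mitochondrial range held 2543 against 1642 TPM, while the other 9 held 985 against 1121 TPM. The 20 cytosolic enzyme genes summed to 7.08 times the mitochondrial sum in low glucose and 5.01 times in high glucose. Within the cytosolic enzymes, the highest level was 8.99 times the lowest in low glucose and 7.36 times in high glucose.

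Enzymes held in the multi-synthetase complex had a lower median difference than the others. In the cytosol, 8 of the enzymes (EPRS, IARS, LARS, MARS, QARS, KARS, RARS and DARS) are held in 1 particle by AIMP1, AIMP2 and a further factor. Their median difference was 0.08, with 4 above 0 and 4 below, and none was past 1.5-fold. The 12 cytosolic enzyme genes outside the complex had a median of 0.58, with 8 above 0 and 4 below, and 6 past 1.5-fold (CARS, SARS, GARS, WARS, AARS and YARS). Of all genes compared, 54.6% were above 0 and 13.0% at least 1.5-fold higher. Among genes in the range of mean TPM of the cytosolic members these shares were 39.8% and 9.93%. With 8 genes, none past 1.5-fold is not far from such shares. In summed TPM the complex enzymes stood at 1334 against 1243 TPM and the others at 1871 against 1283 TPM. Within the complex the differences ran from MARS at 0.54 to KARS at -0.27, and outside it from CARS at 1.24 to FARSB at -0.23, so the groups overlapped.

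The synthetases fall into structural classes that differ in the fold of the catalytic domain. The 9 cytosolic class I enzyme genes had a median of 0.49, with 3 past 1.5-fold (CARS, WARS and YARS). The 10 class II genes had a median of 0.10, also with 3 past 1.5-fold (SARS, GARS and AARS). EPRS, which joins 1 catalytic domain of each class, was left out of this split. Genes for enzymes of amino acids not classed as essential, a group that here includes cysteine, tyrosine, arginine and glutamine, had a median of 0.51 and 5 of 10 past 1.5-fold. Genes for enzymes of essential amino acids had a median of 0.12 and 1 of 10 (WARS). These 10 include both phenylalanyl subunits, FARSA and FARSB. Past 1.5-fold were 13.0% of all genes compared and 9.93% of genes in the level range of the cytosolic members. The 1 of 10 lay near these shares. The groups overlapped widely, and being defined over the same 20 genes these splits are not independent.

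Other genes of tRNA charging and use stayed within 2-fold. Of 14 further charging factors, 8 were above 0 and 6 below, with a median of 0.12. The most abundant, PTRH2, a peptidyl-tRNA hydrolase, stood at 108 against 88.1 TPM, and DTD2, a deacylase that clears mischarged tRNAs, at 86.8 against 80.4 TPM. EEF1E1, which encodes the third scaffold of the complex, stood at 54.1 against 64.8 TPM (-0.26), and was named after its values were seen. The 41 genes of tRNA transcription and maturation had a median of -0.04, with 19 above 0 and 22 below. Their most abundant members were SSB, the La protein that binds new RNA polymerase III transcripts (278 against 346 TPM), and RTCB, the tRNA ligase (73.5 against 103 TPM).

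Of 11 cytosolic elongation and release factor genes, 9 were below 0, with a median of -0.20. EEF1A1, which delivers charged tRNAs to the ribosome, stood at 4526 against 5777 TPM, and EEF1G, a subunit of its exchange factor, at 1972 against 1981 TPM. The 11 mitochondrial translation factors had a median of -0.03, with TUFM, the mitochondrial counterpart of EEF1A1, at 287 against 278 TPM and MTIF2, an initiation factor, at 67.4 against 62.2 TPM.

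The list of the GCN2 pathway and amino acid response moved further than any synthetase group. Of its 22 genes, 12 were at least 2-fold higher, none 2-fold lower and 20 above 0, with a median of 1.46. Among all genes compared, 3.65% were at least 2-fold higher, 1.10% at least 2-fold lower and 54.6% above 0. The 4 largest differences within the list were those of CHAC1 (3.85), ATF3 (3.25), SLC7A11 (3.04) and SLC7A1 (2.85). SLC7A1, a cationic amino acid importer, stood at 101 against 13.2 TPM. CARS, at 1.24, lay below the median of this list, and ATF4 itself stood at 904 against 658 TPM (0.46). EIF2AK4, the gene of GCN2 itself, stood at 11.1 against 12.6 TPM (-0.17), and was named after its values were seen. The list is named for a pathway and, like the others, was chosen with earlier results of these data known. Its larger movement is therefore a description and not an independent finding. GCN2 activity was not measured, and what raised the genes of the list was not tested. No synthetase list was tested against this one.

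**Figure D4:**
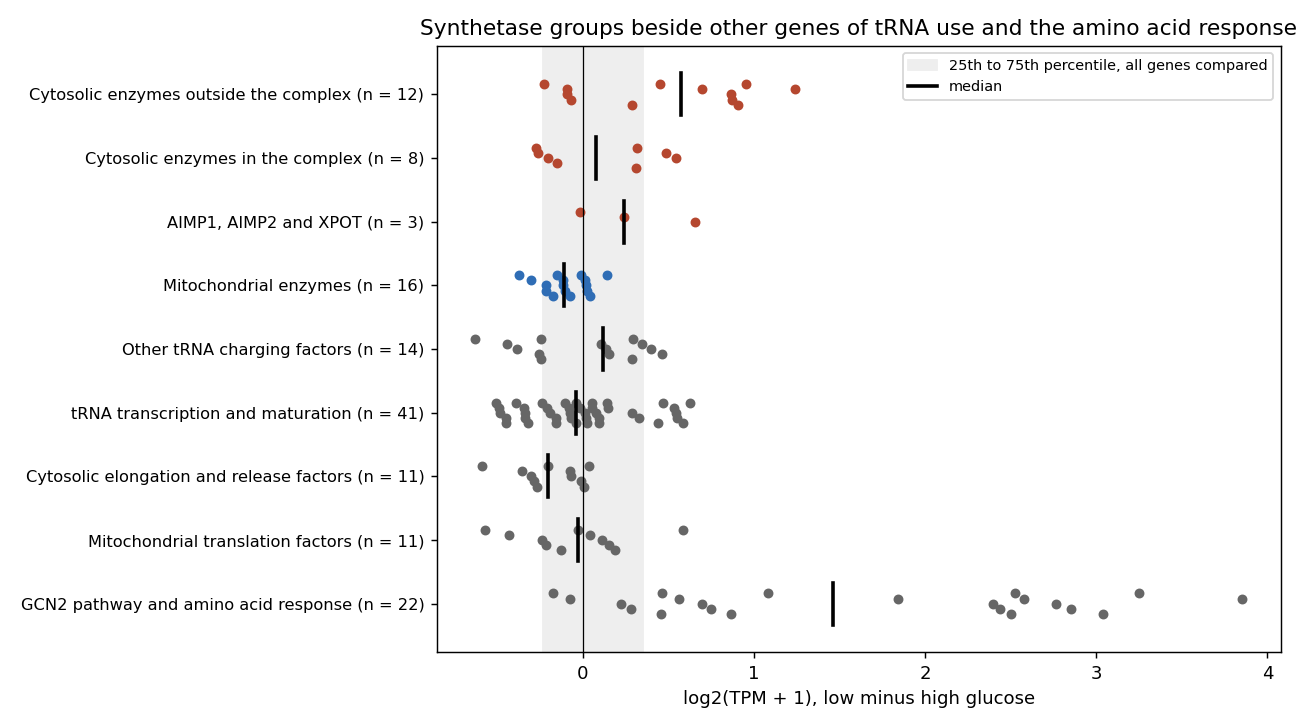
Change in log2(TPM + 1), low glucose value less high glucose value, of each gene (points) and the median (black bars) for synthetase groups (red, blue) and other gene lists (grey); the shaded band spans the 25th to 75th percentile of all genes compared. The median is 0.58 for cytosolic enzymes outside the complex, 0.08 for those in it, -0.11 for mitochondrial enzymes and 1.46 for the amino acid response list.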

How the data were processed

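The authors deposited 1 table of TPM per library (the unit is named in the file headers) with a gene symbol and an hg19 interval for each entry. The submitters' processing notes name cutadapt (adapter trimming), RSEM 1.2.21 (transcript abundance, dividing reads that map to several genes) and hg19. The aligner, annotation, strand setting and read numbers are stated in no source used here, so depth is unknown and no counting interval is given. TPM has a fixed total, so a larger share of some genes lowers all others.

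From these values log2(TPM + 1) was computed for all entries, and genes with a mean of at least 1 TPM were compared, low minus high glucose, with a 2-fold rule. With 1 library per medium no p-value exists. Every member was named. Of each further list, up to 4 members past 2-fold were named, filled up to 2 by abundance. Members and lists were chosen with earlier results of these data known. Alternatives were other pseudocounts, filters, thresholds, scalings and member sets. Single values of some listed genes are not reported here. The procedure was checked on simulated data with shifts and noise of chosen size. That check does not bear on the spread between cultures, which is unknown. Promoter windows are RefSeq's (GRCh38.p14), none converted between builds. Python 3.11.15, pandas 2.3.3, numpy 2.4.6 and matplotlib 3.10.9 were used.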

Additional observations from a re-analysis of the deposited data

How the results depend on the processing

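With 1 library per medium no library can be left out. No paired analysis was possible because each medium has 1 library and the columns carry no replicate number. All 14 cytosolic members above the mitochondrial range stayed above it under pseudocounts of 0.1 and 5, no filter, a mean of at least 10 TPM, 4 other scalings and subtraction of the median of like level. The number of members at least 2-fold higher stayed at 1 under these settings except the last, which gave 4. It was 7 at a threshold of 1.5-fold and 0 at 3-fold. Over all genes, 502 were 2-fold higher and 151 lower, against 743 and 222 with a pseudocount of 0.1, 234 and 79 with a pseudocount of 5, and 293 and 103 (of 9457 genes) at a mean of at least 10 TPM. Subtraction of the median of like level gave 442 and 175 over all genes. Subtracting the median of like level moved the cytosolic median difference to 0.45 and its distance from the mitochondrial one to 0.60, against 0.31 and 0.42. The other settings gave distances of 0.38 to 0.43. Among members whose interval no other entry overlaps (entries spanning over 2500000 bases aside), the mitochondrial median was 0.0036, against -0.11, and the distance 0.38. This set leaves out 17 members, among them LARS2 and IARS2, the lowest mitochondrial ones, and also HARS2, which lay above 0. Whether overlap bears on the values of those members was not tested. The sign of the difference held under all these scalings, pseudocounts and filters for 20 of 23 cytosolic and 11 of 16 mitochondrial members. Unknown read depth limits PARS2, WARS2 and FARS2 most, all below 10 TPM.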

Other observations

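Several members overlap or lie within 300 bases of another protein-coding gene in hg19, and the neighbours' values are given here without an explanation; DDIT3 beside MARS, and HARS beside HARS2, are given above. The interval of WDR25 lies 75 bases from that of WARS. It stood at 6.63 TPM in low glucose against 4.41 TPM in high glucose, a log2(TPM + 1) difference of 0.50, beside 0.87 for WARS. DDX19B, an RNA helicase gene 258 bases from AARS, stood at 54.8 against 51.2 TPM (0.10), beside 0.87 for AARS. TERF2IP, a telomere protein gene 50 bases from KARS, stood at 76.0 against 83.7 TPM (-0.14), beside -0.27 for KARS. MRPS12, a mitochondrial ribosomal protein gene, shares 189 bases with SARS2 and stood at 63.9 against 83.8 TPM (-0.39), beside -0.11 for SARS2. UBFD1, 166 bases from EARS2, stood at 39.2 against 56.3 TPM (-0.51), beside -0.15 for EARS2. EIF2AK1, the gene of the heme-regulated eIF2 kinase, shares 1588 bases with AIMP2 and stood at 60.9 against 80.3 TPM (-0.39), while AIMP2 lay at 0.24. S100PBP shares 591 bases with YARS and stood at 0.17, beside 0.70 for YARS. TBCK shares 1095 bases with AIMP1 and stood at 0.25, beside -0.01 for AIMP1. VWA7, 189 bases from VARS, stood at 0.39, beside -0.07 for VARS. ORC3, 50 bases from RARS2, stood at -0.26, beside -0.21 for RARS2. Among the pairs with values in this paragraph, AARS and AIMP2 differed most from their neighbours. MARS at 0.54 and DDIT3 at 2.58, given above, lay further apart.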
